A study of Mus musculus with 6 samples.

Results

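The 10 genes described here mark fibro-adipogenic progenitors, and were chosen by name as Pdgfra, Ly6a, Pi16, Dpt, Mfap5, Fbln1, Smoc2, Clec3b, Gsn and Serping1, out of 22036 genes listed for whole skeletal muscle. All 10 were present in the gene table and all 10 were tested. Fibro-adipogenic progenitors are mesenchymal cells that lie between myofibres and around vessels. They do not form muscle fibres; they lay down connective tissue, support muscle stem cells in repair, and can turn into adipocytes or matrix-producing myofibroblasts when muscle degenerates. In mouse muscle they are usually isolated by the surface proteins PDGFR-alpha, encoded by Pdgfra, and Sca-1, encoded by Ly6a, and single-cell studies divide them into an adventitial type with Pi16 and Dpp4 and a type within the muscle tissue proper.

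The libraries came from 2 groups of PRR14-knockout (KO) mice, 3 libraries each. One group had received an adeno-associated virus (AAV) for MEF2C-GFP, which supplies MEF2C, a transcription factor of muscle, together with green fluorescent protein. The other had received an AAV for GFP, and both were sampled 1 month after the injection. Libraries are numbered by the replicate numbers of the labels. No wild-type or uninjected muscle was analysed here, so that the knockout and the virus are shared by both groups. The labels leave unstated the age and sex of the mice, the muscle taken, the promoter of the virus, and whether the 3 libraries of a group are separate animals. The p-values therefore measure only the spread between these libraries. The comparison asks whether supplying MEF2C to muscle without PRR14 comes with a difference in the progenitor markers.

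Read depth was similar, between 3370833 and 3900617 listed reads per library. The gene Mef2c, whose product the virus supplies, stood at 234, 196 and 371 normalised CPM (read counts scaled by library size and composition) in MEF2C libraries 1, 2 and 3, and at 223, 261 and 236 in GFP libraries 1, 2 and 3, so that MEF2C replicates 1 and 2 lay within or below the GFP range. Whether transcripts of the virus were in the reference used for counting is not stated, so this row may or may not count them. Its log2 change was 0.15 ± 0.22 (SE; edgeR adjusted p = 0.993), and -0.16 without MEF2C replicate 3. Prr14 stood at 7.77, 5.73 and 4.84 CPM in MEF2C libraries 1, 2 and 3, against 3.26, 3.83 and 3.98 CPM in GFP libraries 1, 2 and 3 (log2 change 0.72 ± 0.32, edgeR adjusted p = 0.856), which without a wild type does not check the knockout. Group names below are therefore those of the labels, and directions refer to the libraries labelled MEF2C. Myofibre genes dominated every library as the tissue label states, with a summed level of 107333 to 121125 CPM in the MEF2C libraries and 127745 to 150055 CPM in the GFP libraries for a list of 10. MEF2C replicate 1 stood apart by genes of other tissues: its 9 granulocyte markers summed to 1264 CPM, against 7.72 and 5.81 in MEF2C libraries 2 and 3 and 4.15, 3.51 and 79.5 in GFP libraries 1, 2 and 3.

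None of the 10 progenitor markers passed the test between the libraries labelled MEF2C and GFP. By edgeR's quasi-likelihood test 0 of the 10 had an adjusted p under 0.05, where 0.0758% of the 9229 tested genes did (7 genes, and 22 without MEF2C replicate 3 or at most 3 without any other single library). At an unadjusted p under 0.05 edgeR also found 0 of the 10, against 5.71% of all tested genes. DESeq2 called 0 of the 9 markers to which it gave an adjusted p, against 0.641% of the 4215 genes to which it gave one. By limma-voom 0 markers were called, against 0.0325% of all 9229 tested genes. Fbln1 alone had a limma-voom unadjusted p under 0.05, as did 5.66% of all tested genes. The values of the groups overlapped for each of the 10 genes, whereas 11.1% of all tested genes had groups that did not overlap. A log2 change above 0 was found for 5 of the 10 markers and 52.2% of all genes. The median log2 change of the markers was -0.01 and that of all tested genes 0.01.

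**Figure D1:**
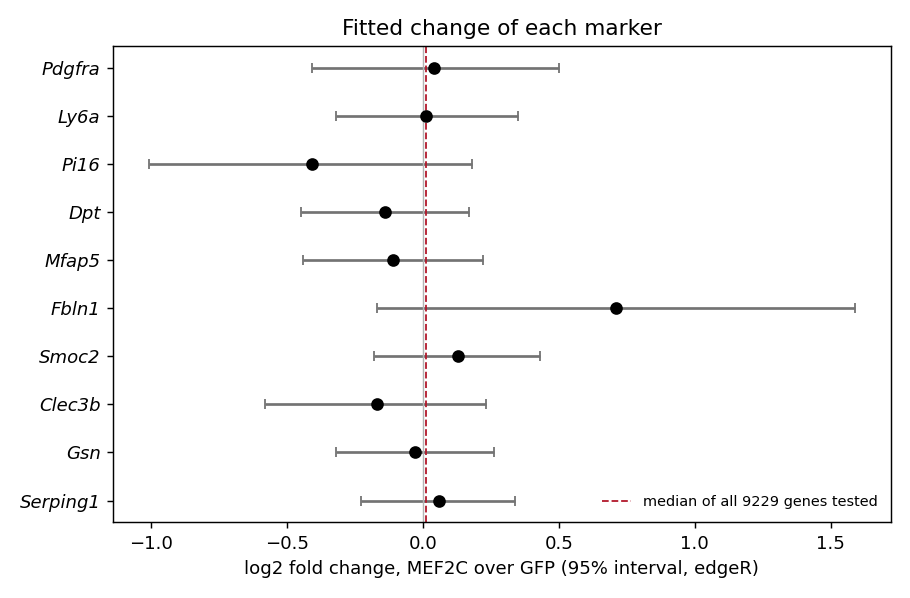
Fitted log2 fold change of each marker, MEF2C over GFP, with its 95% interval from the edgeR fit on 3 libraries per group; the dashed line is the median of all tested genes, at 0.01. Every interval includes 0, and those of Pi16 and Fbln1 are the widest of the 10.

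A p above the threshold does not show equal levels, and the intervals give what the data still allow. For Serping1 the 95% interval of the fold, MEF2C over GFP, ran from 0.855 to 1.27, and for Gsn from 0.798 to 1.2. For Fbln1 it ran from 0.888 to 3.0 and for Pi16 from 0.498 to 1.13, so that a doubling of Fbln1 or a loss of much of Pi16 lies within the range allowed. These are levels in whole muscle, where fewer cells of a type and less RNA per cell cannot be told apart. Together the 10 genes took 0.278%, 0.370% and 0.340% of the listed reads in MEF2C libraries 1, 2 and 3 and 0.348%, 0.283% and 0.289% in GFP libraries 1, 2 and 3. Gsn supplied 68.9% to 74.9% of those reads in the MEF2C libraries and 70.6% to 76.8% in the GFP libraries, so that this sum rests mainly on that gene. Without Gsn the other 9 summed to 860, 907 and 787 CPM in MEF2C libraries 1, 2 and 3, against 805, 880 and 878 CPM in GFP libraries 1, 2 and 3.

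**Figure D2:**
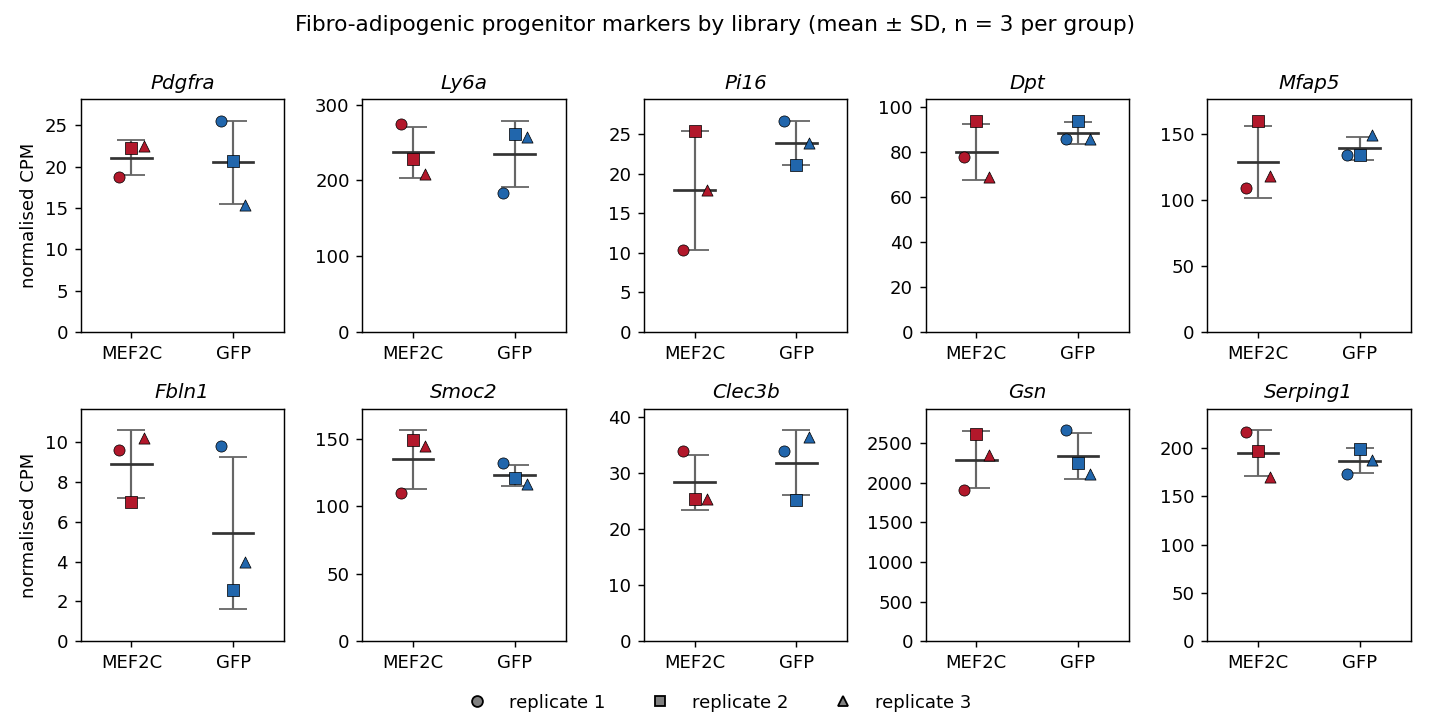
Normalised CPM of each marker in every library, with replicate numbers as symbols and bars for the mean ± SD of 3 libraries per group; each axis starts at 0. The groups overlap in all 10 panels; in the MEF2C group replicate 1 is lowest for Pi16 (10.4 CPM), and in the GFP group replicates 2 and 3 are lowest for Fbln1 (2.55 and 3.98 CPM).

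Among the surface markers, Pdgfra encodes the receptor for platelet-derived growth factors that defines these progenitors (ENSMUSG00000029231, GRCm38 chromosome 5, 75152292 to 75198215, plus strand). Pdgfra stood at 18.7, 22.2 and 22.5 CPM in MEF2C libraries 1, 2 and 3, and at 25.5, 20.7 and 15.4 CPM in GFP libraries 1, 2 and 3. The MEF2C values lay inside the GFP range, whose extremes were GFP replicates 1 and 3. The means were 21.1 ± 2.13 and 20.5 ± 5.06 CPM (SD, n = 3 each), a log2 change of 0.04 ± 0.21 (SE; edgeR adjusted p = 0.993). Between 72 and 93 reads supported the gene in the MEF2C libraries and between 58 and 86 in the GFP libraries, and the exact 95% Poisson intervals of GFP replicates 1 (20.4 to 31.5 CPM) and 3 (11.7 to 19.9 CPM) did not overlap. The cDNA was amplified by PCR and the labels mention no molecular identifiers, so such intervals cover counting error only. Antisense genes overlap the loci of Pdgfra, Dpt, Pi16 and Smoc2 in the annotation. None of these antisense genes is a row of the table, and whether counting used strand is not stated, so reads from both strands may be in these 4 counts.

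RefSeq promoter windows, 300 bases around a transcription start, were at hand for 5 of the 10 genes (Pdgfra, Gsn, Dpt, Pi16 and Fbln1, with 8 windows in all), and were searched for the MEF2 consensus site because MEF2C is the factor supplied. It had a match on either strand in 0 of the 8 windows, where 3.19% of all 32851 windows in the table hold one. This says only that the letters are not in these windows. The Pdgfra window (GRCm38.p6, chr5:75152001-75152300, plus strand) is shown because the list rests on that gene, with its 2 E-boxes, the sequence CANNTG that basic helix-loop-helix factors bind, in capitals. An E-box is found on either strand in 72.3% of all windows, and neither of these overlaps another motif searched.
Pdgfra promoter: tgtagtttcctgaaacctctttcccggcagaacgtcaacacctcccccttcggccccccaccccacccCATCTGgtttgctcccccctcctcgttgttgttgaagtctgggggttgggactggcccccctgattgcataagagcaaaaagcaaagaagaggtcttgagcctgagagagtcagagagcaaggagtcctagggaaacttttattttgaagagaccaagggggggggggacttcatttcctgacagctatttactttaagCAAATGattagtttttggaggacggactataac

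Ly6a encodes Sca-1, a membrane-anchored protein of progenitors that endothelial cells also carry (ENSMUSG00000075602, chromosome 15, 74994877 to 74998031, minus strand). Ly6a stood at 275, 228 and 209 CPM in MEF2C libraries 1, 2 and 3, against 184, 262 and 258 CPM in GFP libraries 1, 2 and 3. MEF2C replicate 1 was the highest of the 6 libraries and GFP replicate 1 the lowest, and the other 4 lay between them. The log2 change was 0.01 ± 0.16 (edgeR adjusted p = 0.997), and it was -0.11 without MEF2C replicate 1 and -0.15 without GFP replicate 1. With 621 to 1061 reads per library the counting error was at most 4.01%. Ly6a belongs to a family of similar genes, and Ly6c1 of that family was also highest in MEF2C replicate 1, at 588 CPM, and lowest in GFP replicate 1, at 337 CPM.

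Pi16 encodes a secreted or membrane-bound peptidase inhibitor of the adventitial progenitors (ENSMUSG00000024011, chromosome 17, 29317680 to 29330593, plus strand). Pi16 stood at 10.4, 25.4 and 17.9 CPM in MEF2C libraries 1, 2 and 3, and at 26.7, 21.1 and 23.9 CPM in GFP libraries 1, 2 and 3. MEF2C replicates 1 and 3 were below all GFP libraries, while MEF2C replicate 2 lay among them. The MEF2C libraries spanned 2.45-fold and the GFP libraries 1.27-fold, and the Poisson intervals of MEF2C replicates 1 (7.40 to 14.1 CPM) and 2 (20.7 to 30.8 CPM) did not overlap. The log2 change of -0.41 ± 0.27 did not pass (edgeR unadjusted p = 0.154, adjusted p = 0.947). It was -0.15 without MEF2C replicate 1 and -0.75 without MEF2C replicate 2, where the unadjusted p was 0.0117 and the adjusted p 0.711. MEF2C replicate 1, where Pi16 was lowest, is the library rich in granulocyte markers. Whether these markers bear on the value was not tested.

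Of the matrix proteins, Dpt encodes dermatopontin, which binds decorin and helps collagen fibrils to form (ENSMUSG00000026574, chromosome 1, 164796644 to 164824266, plus strand). Dpt stood at 77.5, 93.6 and 69.0 CPM in MEF2C libraries 1, 2 and 3, against 85.6, 93.8 and 85.6 CPM in GFP libraries 1, 2 and 3. MEF2C replicates 1 and 3 were below the GFP libraries, and MEF2C replicate 2 was next to the top of them. The log2 change was -0.14 ± 0.15 (edgeR adjusted p = 0.993). The Dpt promoter window (GRCm38.p6, chr1:164796413-164796712, plus strand) was the only 1 of the 8 with a TATAAA, set in capitals, which 13.6% of all windows hold on either strand. It is shown as the contrast to the window of Pdgfra, which has none, and the capitals overlap no other motif searched.
Dpt promoter: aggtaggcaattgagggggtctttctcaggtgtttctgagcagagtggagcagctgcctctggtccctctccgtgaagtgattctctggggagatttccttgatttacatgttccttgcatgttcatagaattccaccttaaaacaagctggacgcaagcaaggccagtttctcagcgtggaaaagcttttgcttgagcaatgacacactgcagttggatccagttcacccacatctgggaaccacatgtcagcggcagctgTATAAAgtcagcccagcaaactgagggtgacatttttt

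Mfap5 encodes a glycoprotein of elastic microfibrils (ENSMUSG00000030116, chromosome 6, 122505845 to 122529290, plus strand). Mfap5 stood at 109, 160 and 118 CPM in MEF2C libraries 1, 2 and 3, and at 134, 134 and 149 CPM in GFP libraries 1, 2 and 3. MEF2C replicate 2 was above all GFP libraries and MEF2C replicates 1 and 3 below them. Its log2 change was -0.11 ± 0.15 (edgeR adjusted p = 0.993), and 0.02 with library totals alone.

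Fbln1 encodes fibulin-1, a protein of basement membranes and elastic fibres (ENSMUSG00000006369, chromosome 15, 85205949 to 85286535, plus strand), and it had the largest log2 change of the 10. Fbln1 stood at 9.59, 6.97 and 10.2 CPM in MEF2C libraries 1, 2 and 3, against 9.78, 2.55 and 3.98 CPM in GFP libraries 1, 2 and 3. GFP replicate 1 lay with the MEF2C libraries, while GFP replicates 2 and 3 were lower. The means were 8.91 ± 1.70 and 5.43 ± 3.83 CPM (SD, n = 3 each), a log2 change of 0.71 ± 0.40 (edgeR unadjusted p = 0.105, adjusted p = 0.928). Only 37, 28 and 42 reads in the MEF2C libraries and 33, 8 and 15 in the GFP libraries stood behind these levels. Even so, the Poisson intervals of GFP replicates 1 (6.73 to 13.7 CPM) and 2 (1.1 to 5.03 CPM) did not overlap. Without GFP replicate 1 the log2 change was 1.41 (unadjusted p = 0.00153, adjusted p = 0.346), and without GFP replicate 2 it was 0.39. The unadjusted p was also under 0.05 by limma-voom (0.0484), with a block on the replicate number (0.0369) and with no low-count filter (0.0387), with adjusted p of 0.881, 1 and 0.878.

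Smoc2 encodes a calcium-binding matricellular protein of the SPARC family (ENSMUSG00000023886, chromosome 17, 14279506 to 14404790, plus strand). Smoc2 stood at 110, 149 and 145 CPM in MEF2C libraries 1, 2 and 3, and at 132, 121 and 117 CPM in GFP libraries 1, 2 and 3. MEF2C replicates 2 and 3 were above all GFP libraries and MEF2C replicate 1 below them, with a log2 change of 0.13 ± 0.14 (edgeR adjusted p = 0.993). Without MEF2C replicate 1 it was 0.25. Clec3b encodes tetranectin, a plasminogen-binding lectin (ENSMUSG00000025784, chromosome 9, 123150946 to 123157432, plus strand). Clec3b stood at 33.9, 25.4 and 25.4 CPM in MEF2C libraries 1, 2 and 3, against 33.8, 25.2 and 36.3 CPM in GFP libraries 1, 2 and 3. In both groups the libraries divided between a level near 25 CPM and a level of 33.8 CPM or more. The log2 change was -0.17 ± 0.19 (edgeR adjusted p = 0.993).

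Gsn encodes gelsolin, an actin-severing protein with a cytoplasmic and a secreted plasma form, which many cells besides progenitors make (ENSMUSG00000026879, chromosome 2, 35256380 to 35307892, plus strand). Gsn stood at 1907, 2616 and 2351 CPM in MEF2C libraries 1, 2 and 3, and at 2669, 2254 and 2107 CPM in GFP libraries 1, 2 and 3. MEF2C replicate 1 was the lowest library and GFP replicate 1 the highest. With 7065 to 10506 reads the counting error was at most 1.19%, well below the spread of 15.6% in the MEF2C group and 12.4% in the GFP group (coefficients of variation, n = 3 each). The log2 change of -0.03 ± 0.14 (edgeR adjusted p = 0.993) was 0.10 with library totals alone. Serping1 encodes the C1 inhibitor, which blocks the first proteases of the complement cascade (ENSMUSG00000023224, chromosome 2, 84765387 to 84775444, minus strand). Serping1 stood at 217, 197 and 170 CPM in MEF2C libraries 1, 2 and 3, against 173, 199 and 188 CPM in GFP libraries 1, 2 and 3. It spanned 1.28-fold over all 6 libraries, the smallest range of the 10 markers, with a log2 change of 0.06 ± 0.13 (edgeR adjusted p = 0.993).

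The 10 markers did not follow 1 common order of the libraries. To compare patterns, each gene's log2 CPM was centred on its own mean over the 6 libraries, and the likeness of a pair was taken as the root mean square (RMS) difference of the centred values. The closest pairs were Gsn with Smoc2 (0.0979), Ly6a with Serping1 (0.122) and Pdgfra with Gsn (0.142), and Dpt with Mfap5 lay between the Ly6a and Pdgfra pairs. Pi16 and Fbln1 were the most unlike pair (0.922). MEF2C replicate 1 was the lowest library for Gsn, Mfap5, Pi16 and Smoc2, and the highest for Ly6a and Serping1. The number of markers above their own mean was 4, 8 and 4 in MEF2C libraries 1, 2 and 3, and 8, 6 and 5 in GFP libraries 1, 2 and 3. The library medians of the centred values were -0.12, 0.13 and -0.16 in MEF2C libraries 1, 2 and 3 and 0.11, 0.01 and 0.01 in GFP libraries 1, 2 and 3, so that the MEF2C libraries lay on both sides of the GFP libraries.

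**Figure D3:**
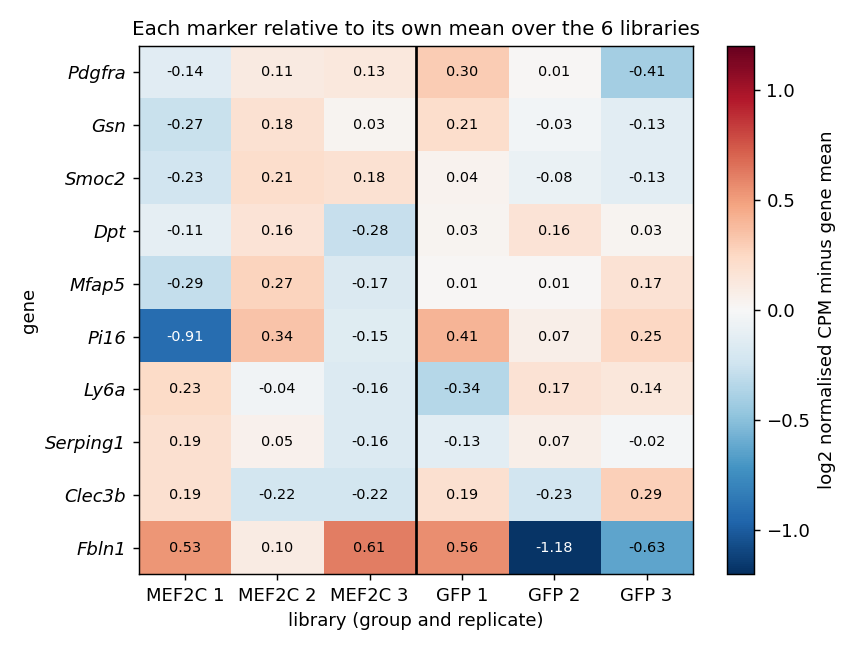
Centred log2 normalised CPM of each marker (rows) in each library (columns, MEF2C left of the line and GFP right of it); red is above and blue below the gene's own mean over the 6 libraries. The darkest cells are Fbln1 in GFP replicate 2 (-1.18) and Pi16 in MEF2C replicate 1 (-0.91), and no row divides at the line between the groups.

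Among 7136 genes with a mean of at least 20 counts, the 5 nearest to Pdgfra over the 6 libraries were Snd1, Birc2, Mgea5, Ube2h and Afap1, with RMS differences of 0.0521 to 0.0740. The median gene differed by 0.316. All 5 had between 30 and 86 reads in every library, and 0 of them is on any marker list used here. Of the other markers Gsn and Smoc2 ranked 126 and 308 in likeness to Pdgfra, Dpt, Serping1 and Mfap5 lay near the median gene, at 0.276, 0.30 and 0.303, and Clec3b, Ly6a, Pi16 and Fbln1 were farther off, at 0.385 to 0.608. With 6 libraries and 7136 genes, close patterns occur between genes of any kind.

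Other genes known from these cells also had medians near 0. In the adventitial list 5 of 8 tested genes had a positive log2 change with a median of 0.05, and Dpp4, the surface peptidase that marks these cells with Pi16, stood at 4.40, 6.47 and 7.74 CPM in MEF2C libraries 1, 2 and 3 and 2.96, 3.19 and 5.57 CPM in GFP libraries 1, 2 and 3 (log2 change 0.65 ± 0.35, edgeR adjusted p = 0.928). Pi16 and Dpp4 thus had changes of opposite sign, neither of which passed, and Dpp4 rested on only 10 to 32 reads per library. The summed level of the adventitial list was 647 CPM in MEF2C replicate 1, against 247 and 242 in MEF2C libraries 2 and 3 and 236, 197 and 284 in GFP libraries 1, 2 and 3. Most of that was Prg4, the lubricin of joint surfaces, chosen after its values were seen, at 388 CPM in MEF2C replicate 1 and at most 50.1 CPM elsewhere.

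The list of progenitors within the tissue had a positive change in 6 of 11 tested genes and a median of 0.02. Its genes with the smallest p were Lpl, the lipoprotein lipase that adipocytes and myofibres also make, and Crispld2, a secreted protein of mesenchymal cells. Lpl stood at 396, 300 and 310 CPM in MEF2C libraries 1, 2 and 3 and at 215, 242 and 287 CPM in GFP libraries 1, 2 and 3 (log2 change 0.43 ± 0.15, edgeR adjusted p = 0.749). Crispld2 stood at 28.5, 23.2 and 28.3 CPM against 31.7, 37.0 and 33.4 CPM in the same order of groups (-0.35 ± 0.16, adjusted p = 0.872). For both genes the groups were apart. The general fibroblast list had a positive change in 7 of 17 tested genes and a median of -0.05, and its chains of type I collagen, Col1a1 and Col1a2, had log2 changes of 0.29 ± 0.17 and 0.22 ± 0.15 (edgeR adjusted p = 0.928 and 0.951). Col1a1 stood at 0.08 without MEF2C replicate 2, and Col1a2 at 0.08 without GFP replicate 3.

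Genes that act with the members were examined by role. Of the ligands and other receptors of platelet-derived growth factor, 3 of 5 tested had a positive change with a median of 0.05, where Pdgfd, a ligand, stood at 0.20 ± 0.27 and Pdgfrb, the beta receptor of pericytes, at 0.12 ± 0.17 (edgeR adjusted p = 0.993 each). In the elastic fibre and microfibril list, to which Mfap5 and Fbln1 relate, 6 of 11 were positive with a median of 0.03, with Ltbp1 at 0.67 ± 0.31 and Emilin2 at 0.84 ± 0.39 (adjusted p = 0.859 and 0.872). Ltbp1 rested on only 12 to 39 reads per library and Emilin2 on 4 to 20. The complement list, the cascade that Serping1 restrains, had 8 of 11 positive with a median of 0.33. C3, the central component, stood at 42.2, 55.0 and 43.1 CPM in MEF2C libraries 1, 2 and 3, against 24.6, 29.4 and 34.7 CPM in GFP libraries 1, 2 and 3 (log2 change 0.66 ± 0.18, edgeR unadjusted p = 0.00201, adjusted p = 0.440). Its groups were apart, while those of Serping1 overlapped. Relatives of SPARC and gelsolin had 5 of 7 positive with a median of 0.09, and the Ly6 family 2 of 3 with a median of 0.12.

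Lists for the fates that these progenitors can take held no gene that passed, and their medians were above 0. In the fibrosis and myofibroblast list 13 of 14 tested genes had a positive change and the median log2 change was 0.52. Timp1, an inhibitor of matrix proteases, stood at 14.0, 9.96 and 6.05 CPM in MEF2C libraries 1, 2 and 3, and at 4.44, 3.83 and 5.30 CPM in GFP libraries 1, 2 and 3 (1.12 ± 0.33, edgeR adjusted p = 0.641), and Tnc, the matrix protein tenascin C, had 0.81 ± 0.31 (adjusted p = 0.808). In the adipocyte list 8 of 9 were positive with a median of 0.67, where Adipoq, the hormone adiponectin, had 0.94 ± 0.38 and Cebpa, an adipocyte transcription factor, 0.58 ± 0.34 (edgeR adjusted p = 0.859 and 0.928). The groups of Adipoq overlapped, and its change was 0.45 without MEF2C replicate 2, while that of Tnc was 0.48 without MEF2C replicate 1. The adipocyte list summed to 1015, 1982 and 1356 CPM in MEF2C libraries 1, 2 and 3. In GFP libraries 1, 2 and 3 it summed to 897, 1188 and 1107 CPM, so that MEF2C replicate 1 lay within the GFP range. Timp1 rested on 12 to 54 reads per library and Cebpa on 9 to 25. At an unadjusted p under 0.05 edgeR found 5 genes of the fibrosis list and 1 of the adipocyte list, all higher, against 3.36% of all tested genes in that direction. In all the lists of this and the 3 paragraphs before it, edgeR, DESeq2 and limma-voom called 0 genes. DESeq2 gave an adjusted p to only part of the tested genes, 6 of 14 in the fibrosis list and 6 of 9 in the adipocyte list. Of the genes named, Dpp4, Pdgfd, Ltbp1, Emilin2, Timp1, Tnc and Cebpa had none, so DESeq2 could not call them. These medians were not compared by a test, and nothing particular to a list is drawn from them.

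**Figure D4:**
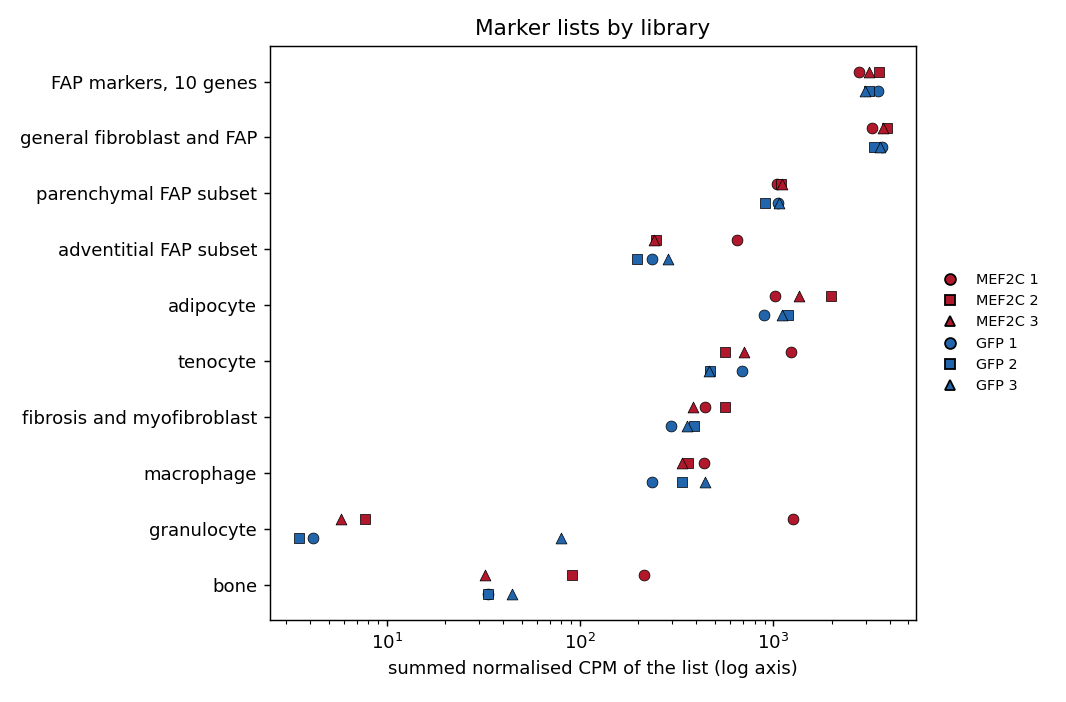
Summed normalised CPM of 10 marker lists in each library on a log axis, MEF2C in red above GFP in blue, with replicate numbers as symbols. The sums of the 10 progenitor markers lie between 2768 and 3523 CPM in the MEF2C libraries and between 2985 and 3473 CPM in the GFP libraries, while the granulocyte list ranges from 3.51 to 1264 CPM.

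Markers of other cells that could share these genes are given for comparison. The tenocyte list had a positive log2 change in 6 of 7 tested genes with a median of 0.47. For the smooth muscle and pericyte list these were 9 of 10 and 0.15. Medians were also above 0 for the bone (1.35, 3 tested), granulocyte (3.32, 2 tested), macrophage (0.17) and endothelial (0.13) lists. They were below 0 for the satellite cell (-0.16), Schwann cell (-0.41) and myofibre (-0.09) lists. No test compared these medians. The endothelial list, whose cells also carry Ly6a, summed to 1537, 1393 and 1364 CPM in MEF2C libraries 1, 2 and 3, and to 1208, 1402 and 1338 CPM in GFP libraries 1, 2 and 3. Ly6c1, which is on this list, supplied 588 CPM of the sum in MEF2C replicate 1. The tenocyte list summed to 1233, 565 and 709 CPM in MEF2C libraries 1, 2 and 3 and to 689, 468 and 464 CPM in GFP libraries 1, 2 and 3, and the bone list to 213, 90.9 and 32.2 CPM against 33.2, 33.2 and 44.3 CPM. MEF2C replicate 1, the lowest library for 4 of the progenitor markers, was thus the highest for tendon, bone and granulocyte genes. The part of these tissues in the marker values was not tested. Without that library the median log2 change of the 10 markers was -0.02, with 0 called by edgeR and 0 at an unadjusted p under 0.05. The macrophage list spanned 337 to 435 CPM in the MEF2C libraries and 236 to 441 CPM in the GFP libraries, the smooth muscle and pericyte list 1004 to 1095 and 787 to 995 CPM, the satellite cell list 65.5 to 77.2 and 75.6 to 85.0 CPM, and the Schwann cell list 98.2 to 144 and 131 to 160 CPM. In the smooth muscle list, which shares Acta2 with the fibrosis list, Myh11, the smooth muscle myosin, stood at 97.2, 108 and 103 CPM in MEF2C libraries 1, 2 and 3, against 70.5, 60.6 and 47.7 CPM in GFP libraries 1, 2 and 3. Its groups were apart, and it was called higher by DESeq2 (adjusted p = 0.0132) but not by edgeR (log2 change 0.78 ± 0.16, adjusted p = 0.126). In the myofibre list Myh7, the slow-fibre myosin, was likewise called higher by DESeq2 (adjusted p = 0.0445) but not by edgeR (log2 change 3.83 ± 0.92, adjusted p = 0.749). It stood at 20.1 to 74.4 CPM in the MEF2C libraries and 0.319 to 7.11 CPM in the GFP libraries. Acta1 of that list had the opposite sign and did not pass (log2 change -0.39 ± 0.13, edgeR adjusted p = 0.715). Of the 10 myofibre genes, 3 had groups apart with MEF2C lower and 1 with MEF2C higher. Over all tested genes 11.1% had groups apart in either direction. All genes of the macrophage, satellite cell, endothelial, tenocyte and granulocyte lists had at least 1 read in some library. Of the bone list only Sp7, the factor that defines osteoblasts, was at 0 throughout. Other genes of that list had reads. Ibsp stood at 102, 35.4 and 0.242 CPM in MEF2C libraries 1, 2 and 3, and at 0, 0 and 4.77 CPM in GFP libraries 1, 2 and 3. Acp5 stood at 24.4, 17.4 and 3.39 CPM against 3.56, 7.98 and 6.1 CPM in the same order. Neither passed (edgeR adjusted p = 0.928 and 0.93).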

How the data were processed

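Nanopore PCR-cDNA libraries were made from 1 µg of total RNA of frozen skeletal muscle, per the labels' protocols. The authors deposited raw read counts per gene and the CPM of the same libraries, per the file headers. The submitters' processing notes name minimap2, GRCm38 and DESeq2 1.6.3 without roles, while the counting tool, its annotation and its use of strand are not stated there. The deposited CPM served only to recover library totals, of which the listed counts were 95.6% to 96.4%. The 30 rows naming no gene held 0 counts and were left out.

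The test was edgeR 4.0.16 under R 4.3.3 on the counts (quasi-likelihood test, robust dispersion, filter by group, TMM, no covariate), with Benjamini-Hochberg adjustment over all 9229 genes tested and calls under 0.05. Standard errors came from the F statistic. Printed CPM are TMM-normalised; centred log2 values used a prior count of 2. Levels are not ranked between genes, since the counting rule is not known. All values printed come from the deposited counts; before use, the test code was checked separately on simulated counts, of which no value is printed. Replicates of a group differed by more than sampling noise (chi-square per degree of freedom 4.95 to 10.3). Coordinates are from GENCODE vM21 (22022 of 22036 identifiers matched) and promoters from RefSeq, GRCm38.p6. Alternatives used DESeq2 1.42.0, limma 3.58.1, other scalings and filters, a length correction (loess, span 0.3) and each library left out. The text names all 10 markers, Mef2c, Prr14, the 5 genes nearest to Pdgfra, and for the related lists the called genes or the 2 with the smallest p; in the other lists these are named only in part. One gene that this rule names is not reported here. The members and lists were chosen with earlier results of these data known.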

Additional observations from a re-analysis of the deposited data

How the results depend on the processing

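None of the 10 markers was called under any of the 17 alternatives, whose smallest adjusted p was 0.346. Of 110 marker values under other scalings, filters, tests and corrections, 105 kept their sign. With library totals alone, which moved the median of all genes to 0.14, the marker median was 0.12, Gsn stood at 0.10 and Mfap5 at 0.02. After the transcript length correction Pdgfra stood at -0.01 and Ly6a at -0.04, and with no low-count filter Ly6a stood at -0.00021. Leaving out each library in turn kept the sign of 52 of 60 marker values and 0 called markers. The ranges were -0.13 to 0.22 for Pdgfra, -0.14 to 0.08 for Gsn, -0.15 to 0.10 for Ly6a, -0.03 to 0.15 for Serping1, -0.16 to 0.33 for Mef2c, -0.02 to 0.39 for Pdgfd and -0.07 to -0.01 for the marker median. The count of genes called over the whole table, 7, was 4 with library sizes without the 50 most abundant genes, 35 with no low-count filter, 3 with the strict filter, 27 by the DESeq2 Wald test, 3 by limma-voom, 0 with non-robust dispersion (557 at an unadjusted p under 0.05) and 0 to 22 when each library was left out; the cause was not tested. Same-numbered libraries showed no sign of pairing. Their deviations from the group means correlated at -0.23, 0.05 and -0.25, against -0.12 to 0.32 for differently numbered libraries. With 3 libraries per group, such correlations cannot decide whether the numbers pair the libraries. A block on the replicate number gave 2 calls and 0 among the markers. Of the 10 markers, depth limits Fbln1 most, with a counting error of 35.4% in GFP replicate 2.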
